A study of Mus musculus with 51 samples.

Results

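The 66 genes described here are the autosomal members of 8 families of developmental transcription factors in the mouse: Pax (9 genes), Six-type homeobox (6), Lhx (8), Dlx (6), Irx (6), Nkx (14), Tbx (12) and Gata (5). They were chosen by their symbols alone from the 20807 protein-coding genes that GENCODE M21 places on chromosomes 1 to 19 (mm10). Gata1 and Tbx22 carry symbols of the same pattern but are not autosomal. Each gene was read at its transcription start sites (TSSs), as windows reaching 500 bp upstream and downstream of the annotated 5′ end of each of its transcripts, in 20 ChIP-Seq peak lists. The nuclei came from whole testis of wild-type adult male C57Bl/6J mice and were sorted by flow cytometry at 4C DNA content for SCP3 together with STRA8, or together with H1t and SCP1, into 5 stages of the first meiotic prophase, from leptonema through zygonema and early and late pachynema to diplonema. H3K4me3 was mapped with an EpiCypher antibody in experiments 1 and 2 of every stage (10 lists). An Abcam antibody that the labels call H3K4me2/3 was used in experiment 2 (5 lists), and H3K9ac was mapped in experiment 1 (5 lists). For the H3K9ac samples the titles name H3K9ac while the antibody label names H3K4me3, and the name in the titles is used here. The value for a gene in a list is the width in bp of the widest peak that touches a TSS window, or 0 where there was no peak. The lists hold no read counts, so the depth behind a call is unknown, and a gene without a peak may still carry the mark below the calling threshold. The populations were sorted from testis, and a mark in a minority of the nuclei cannot be told apart from a weaker mark in all of them.

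As background, these genes encode DNA-binding proteins that pattern the embryo. Pax, Six-type, Lhx, Dlx, Irx and Nkx proteins carry a homeodomain or a paired domain and act in the eye, kidney, brain, pharyngeal arches and heart, Tbx proteins carry a T-box and act in mesoderm, heart and limb, and Gata proteins are zinc finger factors of blood, heart, gut and gonad. Most are silent in spermatocytes, and in stem cells and germ cells the CG-rich promoters of such genes are known for H3K4me3 that coexists with the Polycomb mark H3K27me3, a state called poised or bivalent. H3K27me3 was not analysed here.

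CG content was counted in the 1001 bp around each TSS in the GRCm38 genome, taking the TSS richest in CG for each gene. The 66 genes had a median of 70.5 CG dinucleotides, with a range from 13 (Tbx10) to 124 (Irx2), and the 20807 genes had a median of 51. A CG-rich TSS, defined by an observed to expected CG ratio of at least 0.6 and a GC content of at least 50%, was present at 53 of the 66 genes (80.3%) and at 52.2% of all genes. The 6 members without a peak in any of the 20 lists were Pax4, Pax8, Nkx6-3, Tbx5, Tbx10 and Tbx19, and none of these 6 had a CG-rich TSS. They held between 13 and 29 CG, and the 60 members with a peak held at least 27. Of the 6545 genes without an H3K4me3 or H3K4me2/3 peak in any list, 6.11% had a CG-rich TSS, with a median of 10 CG. The 6 members were thus close to the background of unmarked genes. Genes with no peak in any of the 20 lists made up 9.09% of the members and 31.4% of all genes. RefSeq promoters (GRCm38.p6, 250 bases before to 50 bases after the start) matched 46 of the 66 genes, and 3 of them are shown with CG in capitals because they stand for the patterns described below. Nkx2-4 (chr2:147085296-147085595, minus strand, 38 CG) had a peak in more lists than any other member. Lhx4 (chr1:155741978-155742277, minus strand, 19 CG) was the member that passed the test between stages. Lhx6 (chr2:36104011-36104310, minus strand, 11 CG) had wide H3K4me2/3 peaks and no H3K4me3 peak at its TSS windows. The stretch shown is 1 of 3 promoters of Lhx6. In the 1001 bp around the richest TSS, Lhx6 held 76 CG, Lhx4 70 and Nkx2-4 97, and all 3 had a CG-rich TSS.
Nkx2-4: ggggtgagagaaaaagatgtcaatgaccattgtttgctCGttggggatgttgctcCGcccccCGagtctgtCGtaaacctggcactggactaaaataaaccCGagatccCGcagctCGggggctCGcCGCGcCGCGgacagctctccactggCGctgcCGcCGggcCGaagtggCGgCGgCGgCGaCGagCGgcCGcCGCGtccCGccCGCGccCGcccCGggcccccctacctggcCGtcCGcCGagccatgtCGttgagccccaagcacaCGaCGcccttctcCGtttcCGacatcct
Lhx4: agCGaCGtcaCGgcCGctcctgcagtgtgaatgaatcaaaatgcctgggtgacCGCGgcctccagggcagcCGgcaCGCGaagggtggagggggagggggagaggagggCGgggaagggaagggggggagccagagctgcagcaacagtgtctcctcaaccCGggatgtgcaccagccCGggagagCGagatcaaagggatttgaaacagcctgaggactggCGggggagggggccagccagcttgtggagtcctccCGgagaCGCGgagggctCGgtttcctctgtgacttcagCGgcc
Lhx6: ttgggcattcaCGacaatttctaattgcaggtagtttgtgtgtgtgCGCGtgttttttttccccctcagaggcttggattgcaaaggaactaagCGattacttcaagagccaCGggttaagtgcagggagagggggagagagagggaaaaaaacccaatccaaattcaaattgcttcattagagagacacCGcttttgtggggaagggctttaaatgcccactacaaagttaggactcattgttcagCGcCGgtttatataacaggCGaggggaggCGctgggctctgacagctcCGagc

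**Figure D1:**
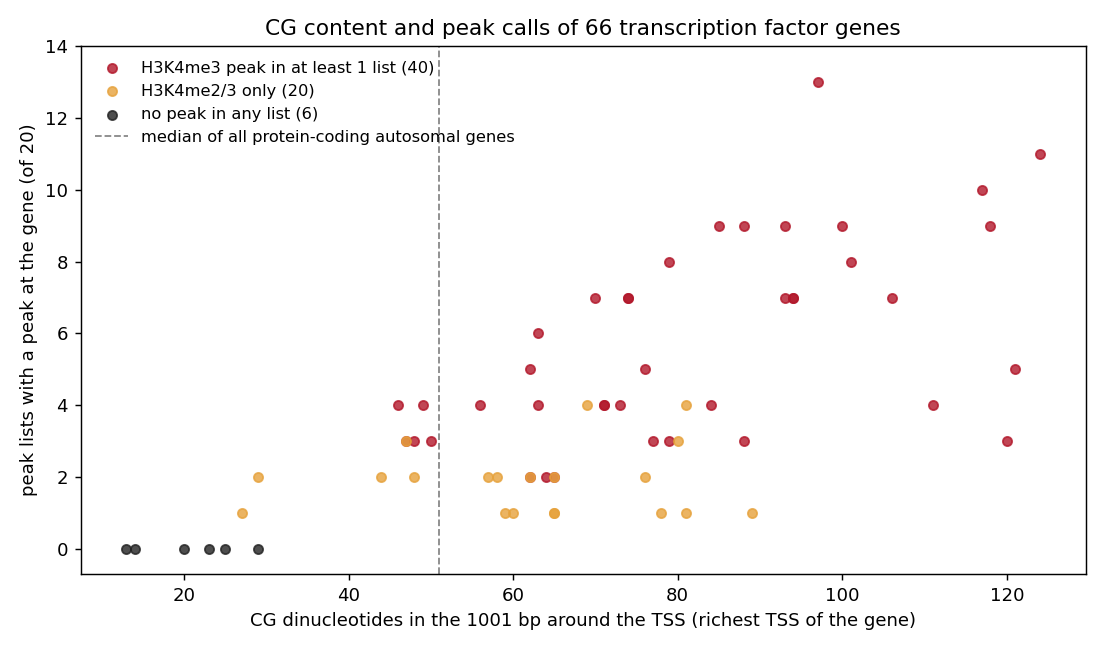
Each point is 1 of the 66 genes, placed by the CG dinucleotides in the 1001 bp around its TSS (horizontal axis) and by the number of the 20 lists with a peak there (vertical axis), and the dashed line marks the median of all protein-coding autosomal genes (51 CG). The 6 genes without a peak lie between 13 and 29 CG, and Nkx2-4, with a peak in 13 lists, lies at 97.

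The transcription factor genes were marked by the H3K4me3 antibody in few lists and by the H3K4me2/3 antibody in many. The share of the 66 genes with an H3K4me3 peak averaged 13.3% over the 10 lists, where all genes averaged 36.2%. In leptonema, experiment 1 gave a peak at 4 members (6.06%) and experiment 2 at 36 (54.5%), beside 39.2% and 47.1% of all genes. In zygonema the counts were 2 and 10 members, beside 36.9% and 35.9% of all genes. No member had an H3K4me3 peak in either list of early pachynema, in which 34.0% and 25.5% of all genes had one. In late pachynema the counts were 0 and 12 members, beside 26.8% and 40.3% of all genes, and in diplonema they were 4 and 20, beside 29.3% and 46.8% of all genes. Leptonema of experiment 2 was therefore the only H3K4me3 list in which the share of members exceeded that of all genes.

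H3K4me2/3 peaks were present at 60 members (90.9%) in leptonema and at 44 (66.7%) in zygonema. After zygonema they were present at 24 (36.4%) in early pachynema, then at 25 (37.9%) in late pachynema, and diplonema had 22 (33.3%). In order of stage, the same lists held 65.7%, 60.5%, 54.6%, 56.4% and 54.3% of all genes. The members were thus above all genes in leptonema and zygonema and below them in the 3 later stages. H3K9ac peaks were present at 3 members in zygonema and at no member in the other 4 stages, whereas the H3K9ac lists held between 2.08% and 41.9% of all genes.

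**Figure D2:**
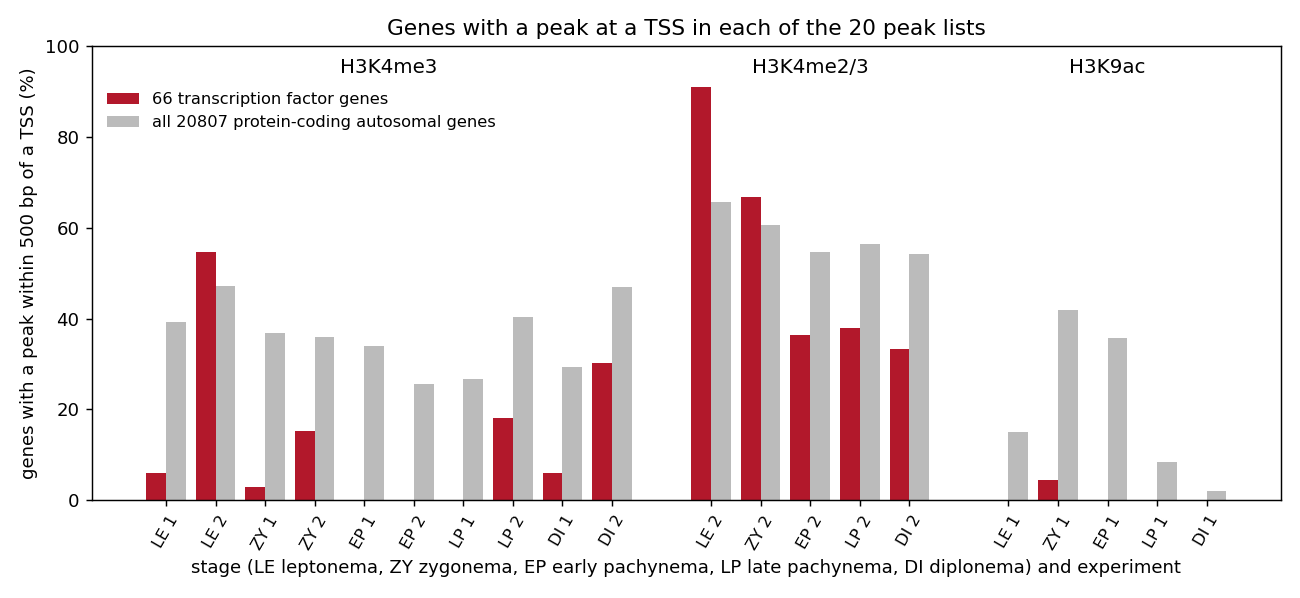
Bars give the percentage of genes with a peak within 500 bp of a TSS in each of the 20 lists (stage and experiment on the horizontal axis), in red for the 66 transcription factor genes and in grey for all 20807 genes. Red exceeds grey in H3K4me3 of leptonema experiment 2 (54.5% and 47.1%) and in H3K4me2/3 of leptonema (90.9% and 65.7%) and zygonema (66.7% and 60.5%).

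For H3K4me2/3 at genes with a CG-rich TSS, the gap between the members and all genes was wider in the later stages. All 53 CG-rich members had an H3K4me2/3 peak in leptonema, where 95.8% of the 10858 CG-rich genes had one. The share of CG-rich members was 73.6% in zygonema, 45.3% in both pachynema lists and 39.6% in diplonema, and that of all CG-rich genes was 92.7% in zygonema and 86.2% in diplonema. For H3K4me3 in experiment 1, CG-rich members reached 7.55% in leptonema and CG-rich genes 69.1%, and in diplonema the shares were 7.55% and 48.6%, a smaller gap. In experiment 2 the shares were 62.3% and 79.9% in leptonema and 37.7% and 78.0% in diplonema. Among CG-rich genes the members were thus below all genes in leptonema of experiment 2 as well. For H3K9ac the gap was widest in zygonema (5.66% and 70.1%). These shares describe the lists and were not tested.

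Within a stage the 2 experiments differed widely at these genes. The mean share of members with an H3K4me3 peak was 30.3% ± 34.3 (SD, n = 2 lists) in leptonema and 9.09% ± 8.57 in zygonema. It was 0% ± 0 in early pachynema, but 9.09% ± 12.9 in late pachynema, and diplonema had 18.2% ± 17.1, so that in 4 stages the SD was close to the mean or above it. For all genes the SDs lay between 0.693 and 12.4 percentage points around means of 29.7% to 43.1%. Experiment 1 gave 10 calls over 330 gene and list pairs (3.03%), at 7 members, and experiment 2 gave 78 calls (23.6%), at 40 members. For all genes these shares were 33.2% and 39.1%. Every call of experiment 1 was repeated in experiment 2 of the same stage (4 of 4 in leptonema, 2 of 2 in zygonema and 4 of 4 in diplonema). Over all genes this held for 98.4%, 89.2% and 99.6% of the calls of experiment 1, so the members were close to the background.

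In leptonema of experiment 2 the H3K4me3 peaks at the members were wide as well as frequent. The median width over the 36 genes with a peak was 1956 bp, against 827 bp over all genes with a peak in that list, and 21 of the 36 (58.3%) were among the widest 10% of its 13095 peaks, against 13.6% of all genes with a peak. Of the 50 widest peaks of the list, 5 lay at members. Nkx2-3, a regulator of gut and spleen development, had a peak of 6442 bp (rank 14). Gata6, a factor of endoderm, heart and gonadal somatic cells, had 5343 bp (rank 20). Gata3, known from T cells and kidney, had 4941 bp (rank 25), Lhx8, known from forebrain neurons and oocytes, had 4610 bp (rank 31), and Dlx2, a forebrain and pharyngeal arch factor, had 3984 bp (rank 45). In experiment 1 of the same stage, Dlx2 had a peak of 610 bp and the other 4 had none. The Nkx2-3 peak (chr19:43606726-43613167) ran mostly upstream of the annotated start at 43612325 and also held the 5′ end of the long noncoding RNA Gm20467. The peaks at Gata6, Gata3 and Lhx8 likewise held the 5′ end of another gene (1010001N08Rik, Gm13256 and AI606473). The Gata6 peak (chr18:11047951-11053293) did not overlap the widest H3K4me3 peaks of Gata6 in the other lists.

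The 2 antibodies were set side by side in leptonema of experiment 2. Both antibodies gave a peak at 36 members, and the widest H3K4me3 peak was wider than the widest H3K4me2/3 peak at 18 of them (50.0%). The widest peak was taken in each list on its own, so the peaks compared at a gene need not lie at the same TSS. At Pax6 and Tbx4, where H3K4me3 was the wider, the peaks did not overlap (chr2:105674113-105676940 and chr2:105668640-105669775 at Pax6). Over all genes with both peaks it was the wider at 4.03%. At Nkx2-3 the H3K4me2/3 peak measured 949 bp, at Gata3 1352 bp and at Lhx8 875 bp, each far below the H3K4me3 width given above. Within 5 kb of the TSSs of Nkx2-3, H3K4me3 peaks covered 8550 bp in 2 peaks and H3K4me2/3 peaks covered 3015 bp in 4 peaks, and at Lhx8 they covered 4610 bp and 875 bp, each in 1 peak. In the other stages of experiment 2 the H3K4me3 peak was the wider at 2 of 10 members in zygonema, 0 of 10 in late pachynema and 1 of 17 in diplonema, and over all genes at 0.819%, 0.275% and 0.746%.

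**Figure D3:**
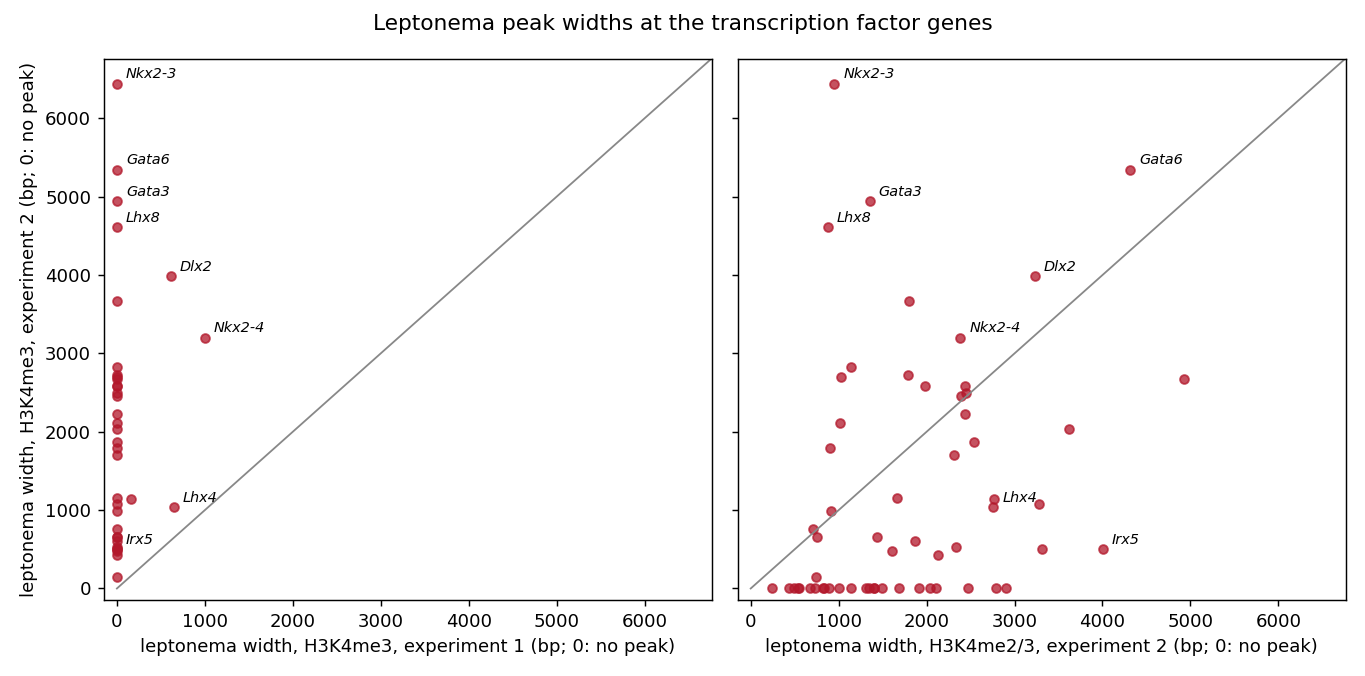
The vertical axis is the width in bp of the leptonema H3K4me3 peak of experiment 2, and each point is a transcription factor gene with a peak in at least 1 of the lists compared. The horizontal axis is the H3K4me3 width of experiment 1 (left) or the H3K4me2/3 width of experiment 2 (right), 0 stands for no peak, and the grey line marks equal widths. On the left nearly all genes lie at 0, and on the right 18 of the 36 genes with both peaks lie above the line.

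Leptonema of experiment 2 stood apart from the other lists at these genes, and its weight was therefore followed through each result. Of the 40 members with any H3K4me3 peak, 16 had it in that list alone, which is 44.4% of the 36 members with a peak there. The same share of all genes with a peak in the list was 6.65%. The other 24 members had a peak in at least 1 of the remaining 9 lists. When each H3K4me3 list was reduced to its 4883 widest peaks, the length of the shortest list, 26 members (39.4%) kept a peak in leptonema of experiment 2 and 3 (4.55%) in experiment 1, where all genes reached 22.7% in the former list.

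The 58 genes of other developmental transcription factors had a like pattern. They had 35 calls (60.3%) in leptonema H3K4me3 of experiment 2 and 1 in experiment 1, and between 1 and 22 calls in the other 8 H3K4me3 lists. Of 11 spermatogonial marker genes, 5 were called in leptonema of experiment 2 (Dmrt1, Etv5, Id4, Kit and Sohlh2) and 4 in experiment 1 (the same without Kit). Of 7 Sertoli cell markers, Sox9 and Wt1 were called in experiment 2 and none in experiment 1, so that the summed width over the markers was 2417 and 0 bp. Sox9 is also counted among the 58 genes. Of 7 Leydig cell markers, Nr5a1 was called in experiment 2 (607 bp) and none in experiment 1. In other H3K4me3 lists of experiment 2, Wt1 was called in zygonema, Nr5a1 in zygonema, late pachynema and diplonema, and Insl3 in diplonema. All 5 markers of peritubular cells and vessels and all 4 macrophage markers were at 0 in every H3K4me3 list. Between 7 and 10 of 10 spermatocyte genes were called in every H3K4me3 list. The part of list length, of other cell types or of other technical differences between the 2 experiments in the width of these peaks was not tested.

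The families were also read one by one. Over the 5 H3K4me2/3 lists, the share of gene and list pairs with a peak was highest in Gata (76.0%) and the Six-type genes (70.0%), followed by Dlx (60.0%), Irx (56.7%), Lhx (52.5%), Nkx (51.4%), Tbx (43.3%) and Pax (37.8%). Over all genes it was 58.3%, so Dlx and Irx were close to the background and Lhx, Nkx, Tbx and Pax below it. Every member of the Six-type, Lhx, Dlx, Irx and Gata families had at least 1 H3K4me2/3 peak, and so did 13 of 14 Nkx, 9 of 12 Tbx and 7 of 9 Pax genes. Of all genes 68.3% had at least 1. Over the 10 H3K4me3 lists the shares lay between 8.89% (Pax) and 16.7% (Six-type), beside 36.2% over all genes, and were not tested. Families hold 5 to 14 genes and some members are neighbours, with 17 of the 66 genes within 100 kb of another member, so that family shares are descriptions only.

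In the Pax family, Pax5, the B lymphocyte identity factor, was called in all 5 H3K4me2/3 lists (2446, 1709, 1037, 1050 and 660 bp from leptonema to diplonema) and in H3K4me3 of leptonema (2500 bp) and zygonema (205 bp) of experiment 2. Pax6, the eye and brain regulator, had an H3K4me3 peak of 2828 bp in leptonema of experiment 2 and none elsewhere. Pax7, a muscle stem cell factor, had a single peak, of 734 bp, in leptonema H3K4me2/3. The family thus ranged from calls in 7 lists to none. Of the Six-type genes, Six5 was called in all 5 H3K4me2/3 lists (247 to 3617 bp) and in H3K4me3 of experiment 2 at leptonema (2039 bp), zygonema (1576 bp), late pachynema (1372 bp) and diplonema (466 bp), and was without a peak in all of experiment 1. Six2, which acts in kidney progenitors, was called by H3K4me3 in leptonema (2110 bp) and diplonema (866 bp) of experiment 2.

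Among Lhx genes, Lhx8 was called in all 5 H3K4me2/3 lists at widths of 319 to 875 bp, far below its H3K4me3 width in leptonema of experiment 2. Lhx2, Lhx4 and Nkx2-4 were the 3 members with an H3K9ac peak, all in zygonema, at 546, 803 and 908 bp. Among Dlx genes, which are arranged as neighbouring pairs, Dlx1 was called in all 5 H3K4me2/3 lists (364 to 2132 bp), and its neighbour Dlx2 in 4 of them (297 to 3233 bp). Irx genes, which lie in clusters, held Irx2 with a peak in 11 of the 20 lists and Irx5 with the widest H3K4me2/3 peak of any member, while Irx4 and Irx6 had 1 peak each, both in leptonema H3K4me2/3. In the Gata family, Gata4, a factor of heart and gonadal somatic cells, had an H3K4me3 peak of 3669 bp in leptonema of experiment 2 and none in the other 9 H3K4me3 lists, and its H3K4me2/3 peaks measured 1804, 1652, 774, 1026 and 400 bp from leptonema to diplonema. Gata2, known from blood stem cells, was called in leptonema (3310 bp) and zygonema (735 bp) H3K4me2/3 and in leptonema H3K4me3 of experiment 2 (508 bp).

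**Figure D4:**
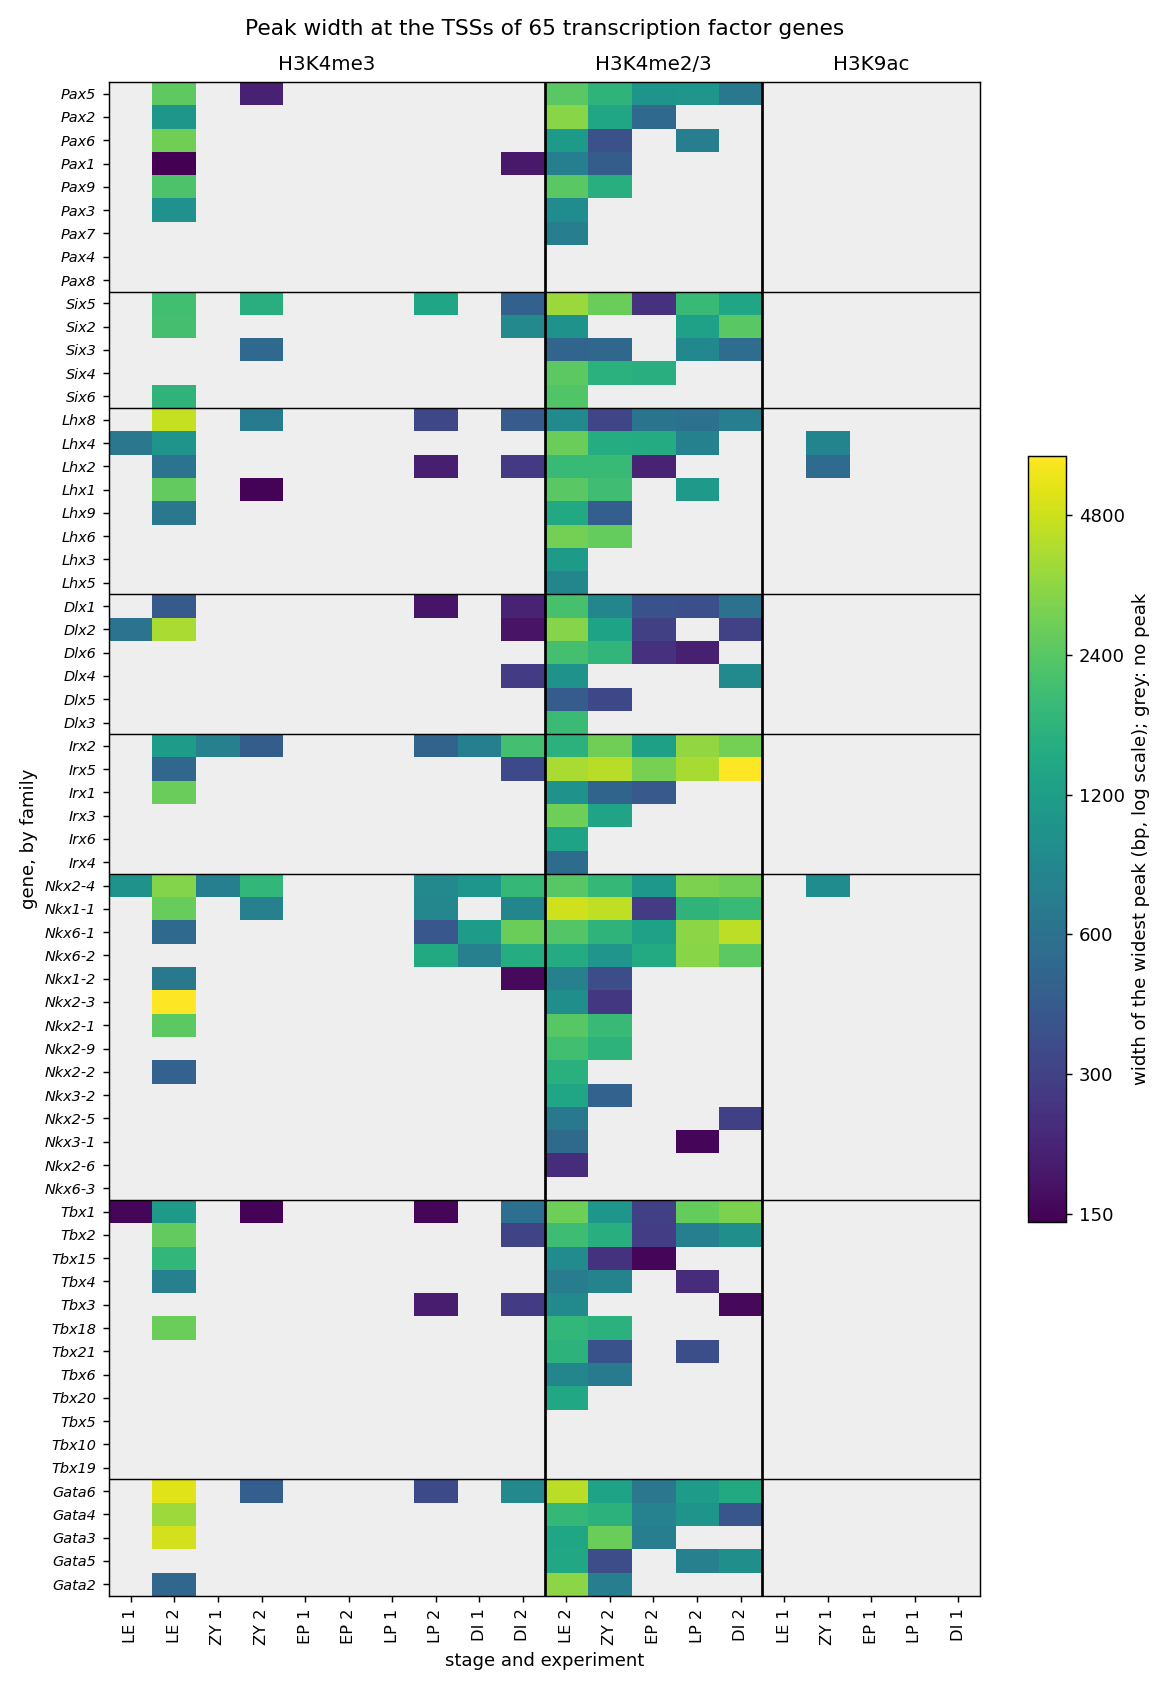
Rows are the genes grouped by family (1 of the 66 is not shown), columns are the 20 lists (stage and experiment), and color gives the width of the widest peak at a TSS in bp on a log scale, from 144 to 6442 bp, with grey for no peak. The H3K4me3 columns of experiment 1 and of early pachynema are almost empty, whereas the leptonema columns of experiment 2 are filled for many genes with H3K4me3 and for nearly all with H3K4me2/3.

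Nkx2-4, a forebrain and thyroid homeobox gene related to Nkx2-1, was the member with the most calls (13 of 20 lists; gene at chr2:147083316-147085445, minus strand). Its H3K4me3 widths in experiments 1 and 2 were 1001 and 3200 bp in leptonema, 747 and 1790 bp in zygonema, 0 and 0 in early pachynema, 0 and 856 bp in late pachynema, and 1055 and 1798 bp in diplonema. Experiment 2 was the wider wherever a peak was called, and both experiments lacked a peak in early pachynema. The H3K4me2/3 antibody gave 2385, 1816, 1093, 3036 and 2832 bp from leptonema to diplonema. The leptonema H3K4me3 peak of experiment 2 (chr2:147083412-147086611) covered the promoter shown above and most of the gene. By the share of lists with a peak in common among lists with a peak in either gene, the members most like Nkx2-4 over the 20 lists were Irx2 (11 of 13 lists, 0.846) and Tbx1 (10 of 13, 0.769), followed by Gata6, Lhx8 and Nkx1-1 (0.692 each). Irx2 was called by H3K4me3 in both zygonema lists (753 and 442 bp) and both diplonema lists (744 and 2054 bp), and in leptonema (1151 bp) and late pachynema (486 bp) of experiment 2. Tbx1, a pharyngeal and heart regulator, was called in 5 H3K4me3 lists at 150 to 1136 bp and in all H3K4me2/3 lists at 294 to 3049 bp.

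Whether the mark at these genes differed between early and later prophase was tested with the 4 H3K4me3 lists of leptonema and zygonema against the 6 lists of early pachynema, late pachynema and diplonema (limma on log2 of width plus 200 bp, all genes with a peak in at least 1 list, Benjamini-Hochberg adjusted p). Of the 40 members that could be tested, 1 was called, and 4.61% of the 11488 genes tested were called. The call was Lhx4, a LIM homeobox gene of the pituitary and motor neurons, which was higher early by 1.18 ± 0.24 on the log2 scale (SE, adjusted p = 0.0348). Its widths were 648 and 1035 bp in the leptonema lists and 0 in both zygonema lists and all 6 later lists, so that the early and later groups overlapped at 0. The call was lost with a block for the experiment and in the exact permutation test. It was also lost without zygonema of experiment 1, either early pachynema list or late pachynema of experiment 2. Among the other settings that could test Lhx4, those with both leptonema lists kept the call. Without 1 leptonema list its widths had no spread within stages. The difference was then 1.31 without experiment 1 and 1.04 without experiment 2. The H3K4me2/3 widths at Lhx4 followed a similar order, 2758, 1514, 1486, 761 and 0 bp from leptonema to diplonema. Genes called as higher early made up 3.39% of those tested, and genes called as lower early 1.23%. With lists reduced to equal size the split of all calls turned, with 516 genes called as higher and 910 as lower early.

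An unadjusted p under 0.05 by limma was reached at 2802 of the 11488 genes tested and at 4 of the 40 members, a smaller share. Besides Lhx4, these were 3 members that missed the threshold after adjustment. Nkx2-4 differed by 1.66 ± 0.52 (adjusted p = 0.0997). Dlx2 differed by 1.45 ± 0.47 (adjusted p = 0.111), with widths of 610 and 3984 bp in leptonema, 0 in both zygonema lists and 177 bp in 1 of the 6 later lists. Nkx6-2, a ventral neural tube gene, differed by -1.40 ± 0.56 (adjusted p = 0.170), with no peak in the 4 early lists and widths of 1447 bp in late pachynema of experiment 2 and of 757 and 1512 bp in diplonema. Nkx6-1, which acts in the neural tube and pancreatic beta cells, had a like order, with 528 bp in leptonema of experiment 2, 404 bp in late pachynema of experiment 2, and 1156 and 2738 bp in diplonema (difference -0.91 ± 0.51, adjusted p = 0.315). In both diplonema lists Nkx6-1 and Nkx6-2 carried a peak together with Irx2 and Nkx2-4, and these were the 4 members called in diplonema of experiment 1.

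**Figure D5:**
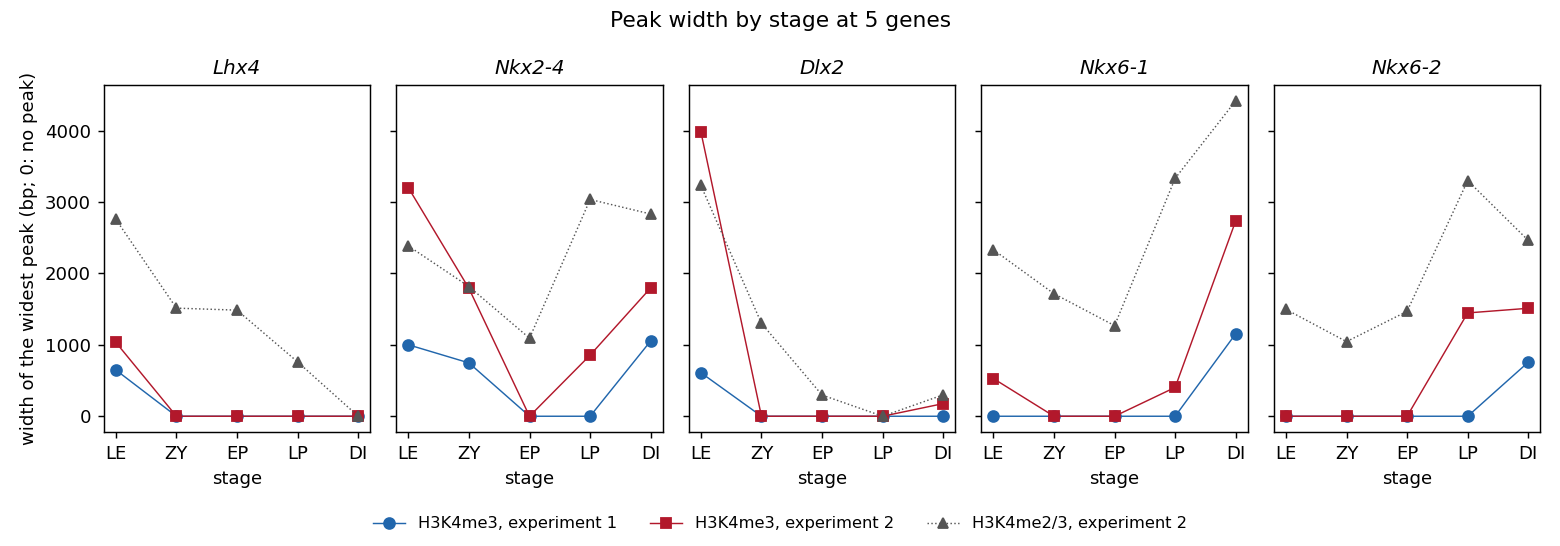
Each panel is 1 gene, with stage on the horizontal axis and the width of the widest peak in bp (0 for no peak) on the vertical axis, for H3K4me3 in experiments 1 (circles) and 2 (squares) and for H3K4me2/3 in experiment 2 (triangles). Lhx4 and Dlx2 are widest in leptonema, Nkx6-1 and Nkx6-2 have H3K4me3 peaks mainly in late pachynema and diplonema, and Nkx2-4 has no H3K4me3 peak in early pachynema in either experiment.

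The median early minus later difference over the 40 members tested was 0.70, against 0.27 over all genes tested. A member entered the test only through a peak in at least 1 of these lists, and leptonema of experiment 2 supplied 36 of the 40. Without that list 24 members could be tested and their median was -0.21 (all genes 0.11). Without leptonema of experiment 1 instead, the median of the members was 1.35 (all genes 0.41). Each of these fits held 1 leptonema list. A gene with its only peak in that list then had no spread within stages, so calls from these fits are not given. The median for the group therefore turned on which leptonema list was kept. Of the 58 other developmental transcription factors, 42 could be tested and 0 were called by limma (median 0.58), and of 31 Polycomb group genes, which encode the repressors of such promoters, 29 could be tested and 0 were called (median 0.28). By contrast, 2 of 5 spermatogonial genes tested were called as higher early (Dmrt1 and Sohlh2), and so was the meiotic recombinase gene Dmc1 among 10 spermatocyte genes.

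The 2 antibodies were compared in experiment 2 with stage as a block. There was 1 list per antibody and stage, so p measures how alike the difference was over the 5 stages. For early pachynema of experiment 2 the paper lists different purity and starting DNA for the 2 antibodies. The H3K4me2/3 peak was wider at 21 of the 60 members tested and narrower at 0 by limma, where 80.6% of the 14240 genes tested were called as wider and 0.00702% as narrower. The share of members called was thus below the background, with a median difference of 0.80 against 1.27 on the log2 scale over all genes tested. Irx5, known from retina and heart, had the largest difference (3.81 ± 0.30, adjusted p = 0.000304), with H3K4me2/3 widths of 4002, 4272, 2945, 3906 and 6412 bp from leptonema to diplonema and H3K4me3 widths of 504, 0, 0, 0 and 333 bp. The H3K4me2/3 peak was the wider in every stage. All 5 of its H3K4me2/3 peaks also contained the 5′ end of the noncoding gene Crnde and neither H3K4me3 peak did, so the difference may not belong to Irx5 alone. Within 5 kb of the Irx5 TSSs every H3K4me3 list held a peak, with 601 and 479 bp covered in the early pachynema lists of experiments 1 and 2. Nkx6-1 differed by 2.23, Lhx4 by 1.94, Gata5 by 1.85 and Tbx1 by 1.87, each past the threshold. Lhx8 differed by 0.06 ± 0.52 (adjusted p = 0.919) and Nkx2-3 by -0.26 ± 0.52 (adjusted p = 0.631). With every list centred on its own median width 1 member was called, and with equal list sizes 1. All genes then had 255 and 1640 calls. Polycomb group genes were called as wider at 28 of 29 tested and the other developmental transcription factors at 16 of 53.

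The 24 members with an H3K4me2/3 and no H3K4me3 peak in leptonema of experiment 2 included Lhx6, an interneuron factor (2908 bp in leptonema and 2629 bp in zygonema), Irx3 (2784 and 1316 bp), Six4 (2469, 1625 and 1560 bp in leptonema, zygonema and early pachynema) and Nkx2-9 (2036 and 1686 bp). Lhx6 and Irx3 had no peak at a TSS window in any H3K4me3 or H3K9ac list. Within 5 kb of the Lhx6 TSSs, H3K4me3 covered 151 and 303 bp in leptonema of experiments 1 and 2, and H3K9ac 937 bp in zygonema. Within 5 kb of the Irx3 TSSs, H3K4me3 covered 842 bp in leptonema of experiment 2, and H3K9ac 985 bp in early pachynema. These 24 were 36.4% of the members, and the same combination was found at 18.8% of all genes. The opposite case involved few genes. Lhx2 and Tbx3 had an H3K4me3 peak without an H3K4me2/3 peak in late pachynema, and Lhx2, Pax1 and Nkx1-2 in diplonema, all at widths between 158 and 273 bp. Of the members with an H3K4me3 peak, 83.3% in late pachynema and 85.0% in diplonema also had an H3K4me2/3 peak, against 99.5% and 99.1% of all genes with an H3K4me3 peak.

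From leptonema on, the H3K4me2/3 peaks of the members were found again in later stages in a smaller share than those of all genes. Of the 60 members with a peak in leptonema, 44 (73.3%) also had one in zygonema. The number was 24 (40.0%) for early pachynema, then 25 (41.7%) for late pachynema, and 22 (36.7%) for diplonema. Of the 13670 genes with a peak in leptonema these shares were 91.2%, 82.2%, 82.9% and 80.5%. A peak in leptonema and none in the 3 later stages was found at 25 members (41.7%) and at 11.7% of genes. There was 1 H3K4me2/3 list per stage, so this course has no replicate and was not tested. All 24 members with a peak in both leptonema and early pachynema were narrower in early pachynema, as were most genes, of which 29.5% were wider there. From early to late pachynema the width went the other way at 13 of 17 members with both peaks (76.5%, all genes 82.0%), and 11 of the 36 members without a peak in early pachynema were called again in late pachynema or diplonema (30.6%, all genes 34.2%). The other developmental transcription factors had a like course, with 71.4% of the 49 genes called in leptonema called also in zygonema and 34.7% in early pachynema. Sertoli cell markers with an H3K4me2/3 peak numbered 4 of 7 in leptonema, 2 in zygonema and 0 in each later stage. Leydig cell markers numbered 2 of 7 in leptonema, 1 in zygonema and in both pachynema lists, and 2 in diplonema. Markers of peritubular cells and vessels numbered 1 of 5 in leptonema, 2 in zygonema and 0 in each later stage. Spermatogonial markers numbered 9 of 11 in leptonema, 9 in zygonema, 6 in early pachynema, and 5 in each of the last 2 stages. The part of other cell types in the course of the members was not tested. Six2, Six3, Irx2, Irx5, Nkx2-4, Nkx6-1, Nkx6-2 and Tbx1 were among the 9 members whose H3K4me2/3 peak was wider in diplonema than in leptonema (40.9% of the 22 with both peaks, all genes 62.9%).

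For H3K4me3 of experiment 2, all 12 members with a peak in late pachynema also had one in diplonema (all genes 98.5%), and 17 of the 20 members with a peak in diplonema (85.0%, all genes 85.2%) had one in leptonema, the others being Dlx4, Tbx3 and Nkx6-2. Both shares were close to those of all genes. The diplonema peaks were narrow, with a median of 447.5 bp over the 20 members against 939 bp over all genes with a peak. In late pachynema the medians were 372 and 655 bp. In zygonema of experiment 2 they measured 485.5 bp against 581 bp.

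H3K9ac was compared with H3K4me3 in experiment 1, with stage as a block. Of the 8 members that could be tested 0 were called by limma, and the share of all 10163 genes tested that were called was also 0%. At an unadjusted p under 0.05 there were 661 genes, among them 1 member, Irx2 (difference -0.90 ± 0.44, adjusted p = 0.658). The median difference was -0.43 over the 8 members and -0.46 over all genes tested. In zygonema, Nkx2-4 was the 1 member with both an H3K9ac and an H3K4me3 peak, Irx2 had H3K4me3 without H3K9ac, and Lhx2 and Lhx4 had H3K9ac without H3K4me3. The H3K9ac lists of late pachynema (1727 peaks) and diplonema (516 peaks) were short, so that an absent H3K9ac peak there says little of single genes.

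Some peaks cannot be assigned to a member alone. Of the 266 member peaks that were the widest at a member, 31 also contained the annotated 5′ end of another gene, at 15 of the 60 members with a peak. No peak was the widest peak of 2 members.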

How the data were processed

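ChIP-Seq peak lists from sorted meiotic nuclei of mouse testis were used as deposited by the authors. According to their methods, reads were aligned to mm10 with BWA mem (0.7.12) and broad peaks were called for each library with MACS2 (2.1.2, q of 0.1) against stage-matched input. For H3K9ac the control is not given in the sources used here. Other values deposited per peak are stage, experiment and antibody names. The lists hold positions, with no score. They were not scaled to the spike-in, so a deeper or cleaner library can give more and wider peaks. The other 31 samples were not analysed here.

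Peaks overlapping a TSS window by at least 1 bp were counted, and the widest per gene was kept. Differences were tested with limma (3.58.1, R 4.3.3) on log2(width + 200 bp), with trend and the Benjamini-Hochberg adjustment over all genes with a peak in at least 1 list of the fit, at a threshold of 0.05. Stage was a block in the comparisons of antibodies. All tests were two-sided, and p-values measure the spread between these lists, since nothing in the labels ties experiments to separate mice. Python 3.11.15, numpy 2.4.6, pandas 2.3.3 and pysam 0.24.0 were used. On simulated widths the fits were tested for the recovery of known changes. Members named were, per family, the one with a peak in most lists, those called in the stage comparison, those with H3K9ac and those without any peak. Dlx2, Nkx6-1, Nkx6-2, Lhx6 and the other members named with values were chosen after their values were seen. 1 member is counted in the totals, and its own values are not reported here. The families, the related gene lists and the tests were chosen with earlier results of these data known. Same-numbered experiments deviated together in only some stages (correlations from -0.149 to 0.291 over 10 pairs of stages), and they were not treated as pairs. These correlations over 11488 genes miss a shift common to a whole list and say little of the members. Experiment 2 gave more member peaks than experiment 1 in every stage but early pachynema. With a block for the experiment, run as an alternative, 0 members were called in the early against later test. Alternatives were a 1000 bp window, protein-coding transcripts only, the wider peaks of each list, equal list sizes, an overlap of 500 bp, 50 or 500 bp added, a peak in at least 2 lists, centred lists, width percentiles, an exact permutation test, a block for the experiment and leaving out each list or stage.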

Additional observations from a re-analysis of the deposited data

Results flagged for a closer look

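Several H3K4me3 widths lay far from the others of their group, the 4 early lists (leptonema and zygonema) or the 6 later lists. In the early lists the far value was that of leptonema experiment 2 at these genes, with 3984 bp at Dlx2, 528 bp at Nkx6-1, 2500 bp at Pax5, 4610 bp at Lhx8, 424 bp at Dlx1, 1136 bp at Tbx1, 5343 bp at Gata6 and 609 bp at Lhx2. In the later lists diplonema experiment 2 lay apart at Dlx2 (177 bp), Irx2 (2054 bp) and Tbx1 (573 bp), and late pachynema experiment 2 at Six5 (1372 bp). Over all members, leptonema experiment 2 lay apart at 31 and zygonema experiment 2 at 1 of the 37 with an early peak, and diplonema experiment 2 at 10 and late pachynema experiment 2 at 1 of the 20 with a later peak. Chance marks about 1 in 20 groups, and a gene with a single peak among its lists is marked by construction.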

How the results depend on the processing

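A call rests on the length of each list, no depth is known, and 2 lists per stage limit the early against later test. Of the 40 members, 1 was called there, 2 with the wider peaks of each list, 3 with equal list sizes, 2 with width percentiles, and 0 with an overlap of 500 bp or with the exact permutation test (which called 0 of all genes and gave an unadjusted p under 0.05 at 1883 genes and 0 members). Leaving out 1 list gave 0 to 22 calls, with 22 without leptonema of experiment 1, and 0 without either early pachynema list or late pachynema of experiment 2. With a replicate block for the experiment 0 members were called (352 genes, against 530). Of all genes tested, 1117 were called with the wider peaks, 1426 with equal list sizes, 1442 with centred lists and 1133 with width percentiles. The difference at Irx2 was -0.27 with equal list sizes (0.42 in the report's fit), and at Dlx1, Irx2, Gata6 and Lhx2, with differences that were never past the threshold, leaving out 1 list moved it between -0.32 and 0.50, -0.27 and 1.11, -0.22 and 2.18, and -0.37 and 0.64. For the antibodies in experiment 2 the 21 calls became 8 with the wider peaks, 1 with equal list sizes, 1 with centred lists and 7 with width percentiles, and lay between 17 and 23 when a stage was left out. The share of members with an H3K4me2/3 peak, 53.0%, was 31.8% with the wider peaks, 44.8% with equal list sizes, 38.5% with an overlap of 500 bp, and 43.6% to 58.0% with a stage left out. For H3K9ac the share of 0.909% was 0% with equal list sizes, 0.303% with an overlap of 500 bp and 0% to 1.14% with a stage left out, and no member could be tested with equal list sizes. The share for H3K4me3, 13.3%, was 7.88% with the wider peaks, 6.97% with equal list sizes and 6.06% with an overlap of 500 bp, and lay between 8.75% and 14.8% when a list was left out. Dlx2 became a call with equal list sizes and with width percentiles, and Nkx6-1 with the wider peaks and with equal list sizes. Without leptonema of experiment 1 the difference was 2.04 at Dlx2 and 2.13 at Pax5. Without late pachynema of experiment 1 it was -1.91 at Nkx6-2. In the early against later test, Nkx2-4, Six5, Lhx8 and Tbx1 did not reverse and kept their side of the threshold. Lhx4 changed side as given in the report. Other members were less stable. The differences at Six2 (0.48), Nkx1-1 (0.74) and Tbx2 (0.72) reached -0.4, -0.22 and -0.23 in an alternative. Gata3 and Dlx4, among others, had an H3K4me3 peak in 1 list only. Leaving out the other list of that stage left no spread within stages at these genes. Between the antibodies, Six5 went from 0.86 to -0.3 in an alternative. The cause of these changes was not tested.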
